A study of Rattus norvegicus with 82 samples.

Results

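At the compensated stage, an added pressure load acts on the right ventricle (RV) of a rat with a banded pulmonary artery, whereas the RV of a rat with a banded aorta is remote from the band. The comparison of both kinds of RV therefore sets a loaded chamber against the same chamber of animals that also had banding surgery, with no sham group in the contrast. It comprised 12 of the 82 cardiomyocyte libraries of the series, taken by their labels, 6 of the RV after pulmonary artery banding (RV PAB-H) and 6 of the RV after aortic banding (RV AOB-H). Each library came from another animal.

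All rats were offspring of Wistar Kyoto mothers and Lewis fathers. A clip that did not narrow the vessel when it was placed was put around the pulmonary artery (PAB) or the aorta (AOB) of young rats, and growth of the animal made it tight. H marks the compensated stage, for which the labels give an age of 11 weeks and a treatment time of 7 weeks. The labels and the methods of the study do not give the same ages for these animals. F marks the failing stage (labelled 28 weeks and 22 weeks of treatment for PAB-F, 31 and 26 weeks for AOB-F), and Sham-H animals were operated without a band and harvested with the H animals. The PAB-H group held 4 males and 2 females and the AOB-H group 2 males and 4 females, so that sex and band were partly confounded. The Y-linked gene *Eif2s3y* had 694 to 835 normalized counts in the 6 male libraries and 0 in the 6 female ones. Cardiomyocytes were released with collagenase from the perfused heart, the ventricles were separated, and myocytes were enriched by filtration and repeated centrifugation.

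Cardiac muscle answers a rise in wall stress with growth of its myocytes, and with a return of genes of the fetal heart, among them those for the natriuretic peptides and for skeletal muscle actin. Non-myocytes answer with the deposition of collagens and other matrix proteins. The RV normally ejects blood against a low pressure and has a thin wall, so a band around the pulmonary artery is a large relative change in its work.

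The libraries held between 9257139 and 15470045 counts in RV AOB-H and between 11445900 and 14332279 in RV PAB-H. Of 17337 genes in the table, 11954 passed the filter on low counts and were tested. Values of single genes are normalized counts, that is, raw counts divided by the effective size of the library and scaled to the mean library. Group values are means ± SD, fold changes are log2 differences (PAB-H minus AOB-H) ± standard error (SE), and a gene was called at an adjusted p under 0.05 (edgeR quasi-likelihood test, Benjamini-Hochberg over all 11954 genes). All 82 libraries, sham included, set the filter and the spread used in each test.

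Not all libraries were alike. Genes for ventricular cardiomyocyte proteins (9 markers, among them *Myh6*, *Myl2* and *Tnni3*) took 7.28% to 11.2% of the counts in the RV PAB-H libraries and 10.4% to 11.4% in RV AOB-H. Their mean was 9.52% ± 1.34 in PAB-H and 11.1% ± 0.364 in AOB-H (SD, n = 6 each, exact permutation p = 0.0195, adjusted over 12 marker lists p = 0.104, two-sided). The 10 fibroblast markers took 0.144% and 0.301% of the counts in PAB-H replicates 1 and 2, and 0.0355% to 0.0528% in the other 4 PAB-H libraries. In AOB-H they took 0.0239% to 0.0666%, with the highest share in replicate 6. The 7 endothelial markers took 0.0887% to 0.226% in PAB-H and 0.0714% to 0.0894% in AOB-H replicates 1 to 5, but 0.258% in AOB-H replicate 6. The 8 macrophage markers took 0.00383% to 0.0195% in PAB-H and 0.00270% to 0.00794% in AOB-H. None of the 12 marker lists differed between the groups after adjustment (the lowest adjusted p was 0.104), and without AOB-H replicate 6 the endothelial, mural, macrophage, epicardial and adipocyte lists did, each with an exact permutation p adjusted to 0.0312. In libraries of pooled cells, fewer cells of a type and less RNA per cell cannot be told apart. PAB-H replicate 2, with the highest fibroblast share, and AOB-H replicate 6, with the highest endothelial share, are called the doubted libraries below. Libraries were not ranked by distance from their group, and PAB-H replicate 1 also stood apart in its fibroblast share.

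**Figure D1:**
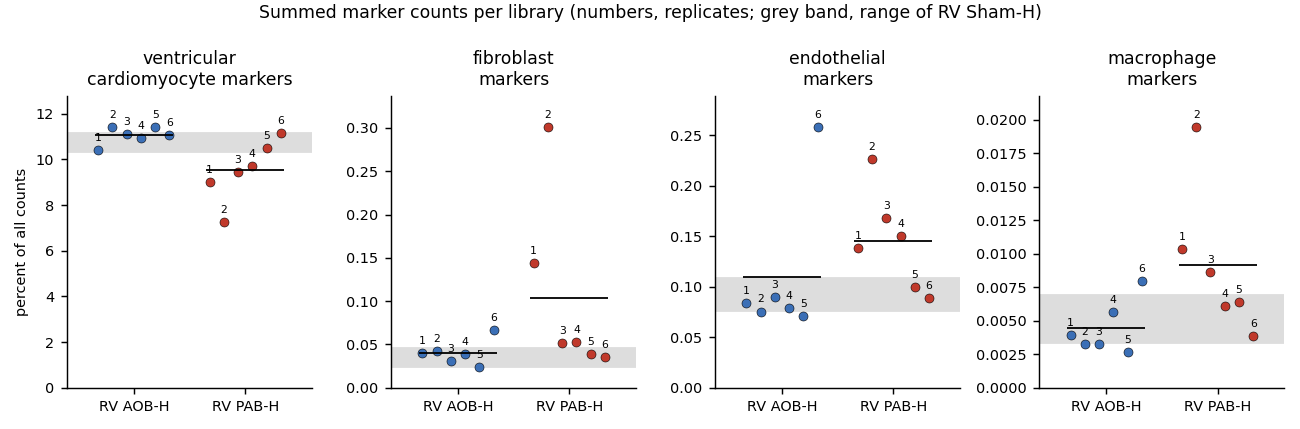
Summed counts of 4 marker lists in each RV library at the compensated stage, as a percent of all counts of the library. Points are libraries with their replicate number, lines are group means, and the grey band is the range of 7 RV Sham-H libraries. Fibroblast markers reached 0.301% in PAB-H replicate 2 and endothelial markers 0.258% in AOB-H replicate 6, while 4 of the PAB-H libraries had fibroblast shares at or below 0.0528%.

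Few genes passed the threshold between the loaded and the remote RV, which does not show that few genes differed. Of 11954 genes, 20 (0.167%) were called, 11 (0.092%) higher and 9 (0.0753%) lower in RV PAB-H. At an unadjusted p under 0.05 there were 2049 genes (17.1%), of which 1286 (10.8%) were higher and 763 (6.38%) lower. The difference was above 0 in 6204 genes (51.9%). The genes that rose were *Thbs4*, *Ltbp2*, *Cilp*, *Acta1*, *Figf*, *Col8a1*, *Dram1*, *Cpeb1*, *Sypl2*, *Ddr2* and *Setd7*. Those that fell were *Pcdh11x*, *Ppp1r1a*, *Smim11*, *Ybx1*, *LOC500300*, *Rgs6*, *Phactr1*, *Sobp* and *Socs2*. The rises were between 0.69 and 5.39 on the log2 scale and the declines between -1.45 and -0.57.

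How many genes passed depended on single libraries. Without PAB-H replicate 2 the count was 1 (*Dram1*), without AOB-H replicate 6 it was 669, without PAB-H replicate 6 it was 350 and without PAB-H replicate 5 it was 78. Without the other 8 libraries in turn it was 3 to 23, falling to 11 and 12 without PAB-H replicates 3 and 4, and to 10, 6, 4, 5 and 3 without AOB-H replicates 1 to 5. With both PAB-H replicate 2 and AOB-H replicate 6 left out it was 0 (1646 genes at an unadjusted p under 0.05, edgeR), and 6 with sex as a further term. Every called gene but *Dram1* lost its call without PAB-H replicate 2, with adjusted p between 0.0729 for *Acta1* and *Sypl2* and 0.565 for *Ltbp2*. The number of these 12 fits that called a gene went from 3 for *Smim11* to 12 for *Dram1*. In a fit to the 12 libraries alone 38 genes were called, and DESeq2 called 78, among them all 20.

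**Figure D2:**
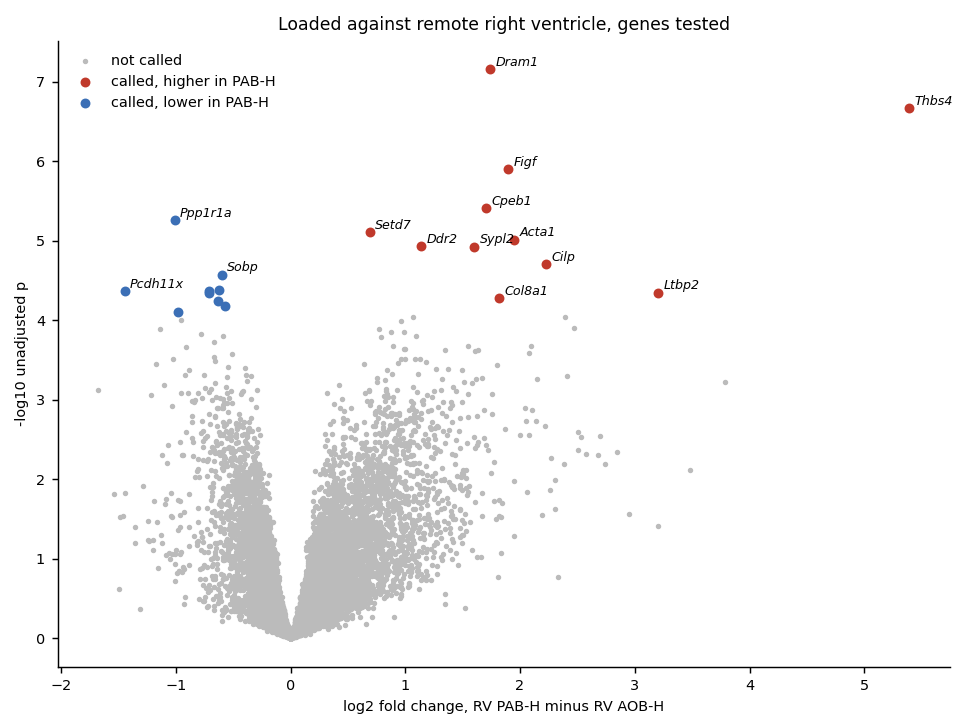
Log2 fold change (horizontal) and -log10 of the unadjusted p (vertical) of the 11954 genes tested, RV PAB-H minus RV AOB-H. The 11 genes called higher and the 9 called lower at an adjusted p under 0.05 are coloured, and *Dram1* and *Thbs4* have the lowest p.

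Among the genes of contractile proteins, skeletal muscle alpha-actin, a fetal isoform that returns under load, rose. *Acta1* had 6156, 19631, 29539, 25056, 28853 and 20280 normalized counts in RV PAB-H replicates 1 to 6. In RV AOB-H it had 8204, 7091, 5037, 3137, 3361 and 6714. Of the loaded libraries 5 lay above every remote one and only replicate 1 lay among them. The log2 difference was 1.95 ± 0.41 (adjusted p = 0.0159), with 21586 ± 8622 in PAB-H and 5591 ± 2080 in AOB-H (SD, n = 6 each). RV Sham-H was at 5354 ± 2678 (SD, n = 7), close to the remote RV. Without PAB-H replicates 1 and 2, the libraries richest in fibroblast counts, the difference of *Acta1* was 2.21 ± 0.43 (adjusted p = 0.0179). Without PAB-H replicate 2 alone it was 1.97 ± 0.43 (adjusted p = 0.0729), and without both doubted libraries 2.02 (adjusted p = 0.0942). *Acta1* was called in 8 of the 12 fits without 1 library, and its call was also lost without AOB-H replicate 3, 4 or 5 (highest adjusted p = 0.0905).

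The promoter of *Acta1* is shown because its gene changed and because motifs known from promoters of muscle genes can be read in it. The 250 bases before its annotated start lie on the minus strand at chr19:68784195-68784444 of the rat assembly GRCr8 (RefSeq). Those of *Nppa*, the atrial natriuretic peptide gene, lie on the plus strand at chr5:163711934-163712183. Capitals mark matches, on either strand, to the MCAT motif CATTCC, the CArG box (the element of serum response factor), the AP-1 motif TGANTCA and the motif TGATAA of GATA factors (the GATA-type motif).
Acta1: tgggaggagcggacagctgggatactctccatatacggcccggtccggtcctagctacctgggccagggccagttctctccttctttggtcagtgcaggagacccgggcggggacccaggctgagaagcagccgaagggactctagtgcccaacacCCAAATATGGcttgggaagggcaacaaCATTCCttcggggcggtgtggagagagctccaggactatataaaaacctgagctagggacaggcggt
Nppa: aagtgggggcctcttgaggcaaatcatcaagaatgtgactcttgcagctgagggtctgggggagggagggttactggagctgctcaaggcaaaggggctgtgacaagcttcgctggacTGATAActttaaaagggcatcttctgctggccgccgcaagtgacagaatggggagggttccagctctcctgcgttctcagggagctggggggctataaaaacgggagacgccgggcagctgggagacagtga
The *Acta1* promoter held a CArG box followed by an MCAT motif, which do not overlap, and the *Nppa* promoter held the GATA-type motif. A CArG box was in 1.5% of 27457 rat promoters of this length and the MCAT motif in 11.8%. The GATA-type motif was in 7.87% of them and the AP-1 motif in 6.36%. Called genes come from the tested genes, where the shares were lower. Of 9669 tested genes with a promoter sequence, 1.117% held a CArG box and 10.04% the MCAT motif. The GATA-type motif was in 3.806% of these and the AP-1 motif in 4.551%. Of the 9 called genes that were higher and had a promoter sequence, 2 (*Thbs4* and *Acta1*) held the MCAT motif and 1 (*Acta1*) the CArG box, and of the 7 that were lower 3 (*LOC500300*, *Pcdh11x* and *Rgs6*) held the MCAT motif. None of these 16 held the AP-1 or the GATA-type motif in these windows.

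The natriuretic peptides, hormones that myocytes secrete upon stretch, were higher in the loaded RV without passing the threshold. *Nppa* had 2272, 3341, 5401, 1873, 3161 and 2734 normalized counts in RV PAB-H and 344, 738, 711, 329, 371 and 900 in RV AOB-H. The groups did not overlap, which held for 79 genes (0.661%) in this direction. The log2 difference of *Nppa* was 2.47 ± 0.61 (adjusted p = 0.057). It passed with DESeq2 (adjusted p = 0.0189), in a fit to the 12 libraries alone (0.0141), with a trend over gene length removed (0.0333) and without any 1 of PAB-H replicates 5 and 6 and AOB-H replicate 6 (0.0202 to 0.0479). It did not pass without PAB-H replicate 2 or without PAB-H replicates 1 and 2. Without both doubted libraries it did not pass either, also with sex as a further term. *Nppb*, the B-type peptide, had 2143, 2848, 5551, 4412, 4889 and 3585 normalized counts in PAB-H and 1866 to 2936 in AOB-H, a log2 difference of 0.58 ± 0.25 (adjusted p = 0.208) with overlapping groups. Per length, *Nppb* was the more abundant of both peptides, with 454 ± 152 FPKM in PAB-H and 305 ± 44.3 in AOB-H, against 280 ± 110 and 51 ± 22.2 FPKM for *Nppa*. Against RV Sham-H the difference of *Nppa* was 3.28 ± 0.60 in PAB-H (adjusted p = 0.000846) and 0.81 in AOB-H (adjusted p = 1), and that of *Nppb* 1.21 ± 0.24 (adjusted p = 0.00238) and 0.63 (adjusted p = 1). The 2 comparisons with sham share their sham libraries and each shares its banded libraries with the comparison of the bands.

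Of 11 natriuretic peptide and fetal sarcomere genes, 1 (*Acta1*) was called, 4 were higher and 2 lower at an unadjusted p under 0.05, and the median log2 difference was 0.53, against 0.01 over all genes tested. Of all genes tested, 10.8% were higher and 6.38% lower at that level. *Myl4*, the atrial and fetal essential light chain, had 414 normalized counts in PAB-H replicate 1, 15.3 to 95.1 in the other PAB-H libraries and 11.0 to 31.6 in AOB-H (log2 difference 2.39 ± 0.58, adjusted p = 0.0501). The atrial markers, *Myl4* among them, took 0.00942% of the counts in that library and 0.000679% to 0.00292% in the other PAB-H libraries. *Sln*, another atrial marker, was also highest there, with 223 normalized counts. The part of atrial RNA in the values of *Myl4* was not tested. *Tnni1*, slow skeletal troponin I, was at -1.08 (adjusted p = 0.134). The myosin heavy chains showed no called difference. *Myh7*, the slow beta chain, had 137002 ± 30054 normalized counts in PAB-H and 97229 ± 43094 in AOB-H (log2 difference 0.49 ± 0.34, adjusted p = 0.479). *Myh6*, the fast alpha chain that dominates in the rodent ventricle, had 612655 ± 147203 and 833788 ± 55415 (-0.44 ± 0.30, adjusted p = 0.453). Of 10 adult contractile genes 0 were called and 5 were lower at an unadjusted p under 0.05, with a median of -0.38. The lowest p was that of *Tnni3*, cardiac troponin I, with 17403 to 38637 normalized counts in PAB-H and 33038 to 66194 in AOB-H (-0.67 ± 0.17, adjusted p = 0.0672).

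Further genes with roles in the myocyte rose as well. *Sypl2*, which encodes mitsugumin 29, a membrane protein of the triad, had 63.1, 147, 236, 169, 191 and 163 normalized counts in PAB-H and 29.8 to 69.7 in AOB-H (log2 difference 1.6 ± 0.34, adjusted p = 0.0159), with only replicate 1 of PAB-H among the remote libraries. *Cpeb1*, which binds polyadenylation elements of mRNAs, had 50.5, 152, 129, 90.6, 79.1 and 75.3 against 9.31 to 47.8 (1.70 ± 0.34, adjusted p = 0.0117). The groups of *Cpeb1* did not overlap, though replicate 1 of PAB-H came near the remote RV. *Setd7*, a lysine methyltransferase, had 445 to 717 against 283 to 458 (0.69 ± 0.14, adjusted p = 0.0157), with 5 of 6 loaded libraries above all remote ones. Without PAB-H replicate 2 the difference was 1.63 for *Sypl2* (adjusted p = 0.0729), 1.52 for *Cpeb1* (0.0898) and 0.62 for *Setd7* (0.133). Among the genes that were not called, *Tceal7* had 21.6, 76, 97.0, 71.3, 70.3 and 80.3 normalized counts in PAB-H and 12.4 to 30.2 in AOB-H (1.76 ± 0.51, adjusted p = 0.0874). *Ankrd23*, an ankyrin repeat protein of the sarcomere, was at 951 ± 348 and 359 ± 123 (1.41 ± 0.42, adjusted p = 0.0929), and *Tgfb2* at 413 ± 134 and 157 ± 59.8 (1.40 ± 0.41, adjusted p = 0.0893). *Ankrd1*, a stretch-induced relative of *Ankrd23*, was at 42431 ± 7930 and 33661 ± 5983 (0.33 ± 0.25, adjusted p = 0.518). Of 15 stretch-responsive and Z-disc genes 0 were called, 1 was higher and 1 lower at an unadjusted p under 0.05 (10.8% and 6.38% of all genes), and the median was -0.03.

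*Penk*, which encodes the precursor of the enkephalins, was not called. It had 261, 738, 1040, 815, 2015 and 1718 normalized counts in PAB-H and 300, 246, 825, 239, 1354 and 454 in AOB-H (log2 difference 0.94 ± 0.35, adjusted p = 0.155). Both banded groups spread widely and overlapped, while RV Sham-H stood at 233 ± 35.4. *Hs3st2*, a heparan sulfate sulfotransferase, had few counts, 0 to 8.79 in PAB-H and 0 to 2.44 in AOB-H (2.31 ± 1.0, adjusted p = 0.215).

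*Dram1*, a lysosomal membrane protein linked to autophagy, had the lowest p of all genes. Its normalized counts were 74.8, 89.2, 43.8, 35.6, 40.1 and 28.4 in RV PAB-H and 18, 8.53, 10.5, 18.9, 20.5 and 16.6 in RV AOB-H. Every loaded library lay above every remote one, and replicates 1 and 2, with the most fibroblast counts, were the highest. The log2 difference was 1.74 ± 0.29 (adjusted p = 0.000834), between 1.52 and 1.86 without any 1 library (highest adjusted p = 0.0256), and 1.23 ± 0.30 without PAB-H replicates 1 and 2 (adjusted p = 0.215). It was the only one of the 20 genes that was called in each of the 12 fits without 1 library. *Figf*, the vascular endothelial growth factor D gene, had 93.8, 145, 58.4, 70.3, 33.2 and 32.1 normalized counts in PAB-H and 13.8 to 31.7 in AOB-H (1.89 ± 0.36, adjusted p = 0.00504), again without overlap, and was at 1.57 (adjusted p = 0.0898) without PAB-H replicate 2.

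**Figure D3:**
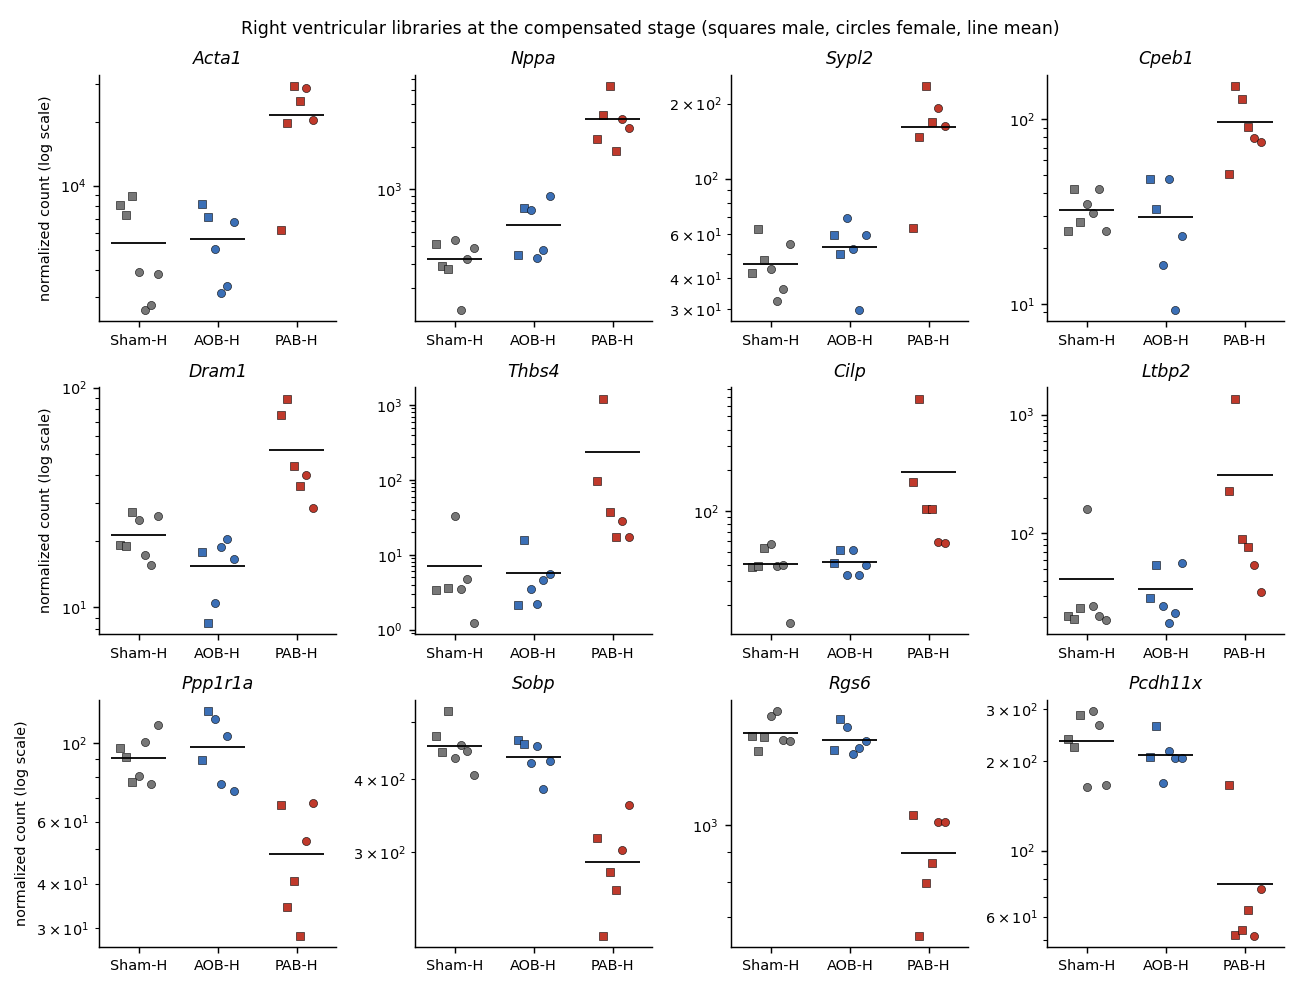
Normalized counts (log scale) of 12 genes in each RV library at the compensated stage. Squares are males, circles females and lines group means of 7 Sham-H, 6 AOB-H and 6 PAB-H libraries. *Acta1* and *Sypl2* were low in 1 male PAB-H library, and *Thbs4*, *Cilp* and *Ltbp2* were highest in another. The ranges of AOB-H and Sham-H overlapped for each gene.

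The called matrix genes rose by 1.14 to 5.39 on the log2 scale, and each was highest in PAB-H replicate 2. *Thbs4*, a thrombospondin of the matrix and of the endoplasmic reticulum, had 96.5, 1218, 37.5, 17.3, 28.3 and 17.3 normalized counts in RV PAB-H and 2.11, 15.8, 3.48, 2.22, 4.65 and 5.52 in RV AOB-H. The groups did not overlap, and PAB-H replicate 2 was over all others. The log2 difference was 5.39 ± 0.95 (adjusted p = 0.0013), and 2.82 (adjusted p = 0.428) without that library. *Cilp*, a cartilage and heart matrix protein, had 164, 677, 103, 104, 58.6 and 58 in PAB-H and 33.5 to 51.2 in AOB-H (2.22 ± 0.49, adjusted p = 0.0238, and 1.23, adjusted p = 0.5, without replicate 2). *Ltbp2*, which encodes a latent TGF-beta binding protein of microfibrils, had 230, 1364, 89.7, 77.4, 54.7 and 32.1 against 17.8 to 56.6 (3.21 ± 0.74, adjusted p = 0.0341, and 1.54, adjusted p = 0.565, without replicate 2). *Col8a1*, a short-chain collagen, had 63 to 766 against 30.7 to 132 (1.82 ± 0.42, adjusted p = 0.0375, and 0.94, adjusted p = 0.533). *Ddr2*, a collagen receptor of fibroblasts, had 348 to 1702 against 245 to 577 (1.14 ± 0.24, adjusted p = 0.0159, and 0.71, adjusted p = 0.428). *Col1a1*, the main fibrillar collagen gene, was not called, with 3402, 6744, 1433, 1382, 1199 and 1082 in PAB-H and 736 to 1890 in AOB-H (1.16 ± 0.38, adjusted p = 0.11).

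These genes were highest in the PAB-H libraries with the most fibroblast marker counts. The marker list overlaps with the matrix lists given below. Its members *Col1a1* and *Col3a1* are also in the collagen list, and *Dcn*, *Lum*, *Postn* and *Mfap5* in the matricellular list. All 9 tested fibroblast markers were higher at an unadjusted p under 0.05 (10.8% of all genes were) and 0 were called. Their median log2 difference was 1.20, and 0.78 without PAB-H replicate 2 and AOB-H replicate 6. Without PAB-H replicates 1 and 2, 17 of the 20 called genes still had an unadjusted p under 0.05 and the same sign (6.47% of all genes had such a p in either direction), in libraries that had also served to choose them. The 3 that did not were *Cilp* at 0.95 ± 0.48, *Ltbp2* at 0.92 ± 0.72 and *Col8a1* at 0.70 ± 0.41. *Col1a1* was then at 0.15 ± 0.38. It is itself 1 of the fibroblast markers by which these 2 libraries stood out. Like *Cilp*, *Ltbp2* and *Col8a1*, it was highest in them, so the falls of these genes follow in part from the choice of libraries. In the same fit *Acta1*, *Sypl2* (1.83 ± 0.36, adjusted p = 0.0179) and *Pcdh11x* (-1.80 ± 0.38, adjusted p = 0.0392) were the 3 called genes. The part of non-myocyte RNA in the matrix values was not tested.

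By group, 8 of 12 collagen genes were higher at an unadjusted p under 0.05 and 1 was called, with a median of 0.81. Of 23 matricellular proteins and proteoglycans, 17 were higher and 1 was lower at that level and 2 were called, with a median of 1.04. *Lum* (lumican) was at 1.51, *Dcn* (decorin) at 1.20, *Tnc* (tenascin C) at 2.51 and *Postn* (periostin) at 2.0, none of them called (adjusted p between 0.0874 and 0.105), and *Cyr61* was the gene that was lower, at -0.51 (adjusted p = 0.128). Of 22 genes of matrix crosslinking and turnover 9 were higher and 0 were called, with a median of 0.62, led by *Fap* (1.13 ± 0.30, adjusted p = 0.0729). Of 23 genes of TGF-beta and activin signalling 8 were higher, 1 was lower and 1 was called (*Ltbp2*), with a median of 0.50. The share of genes higher at this level over all genes was 10.8%. Leaving out PAB-H replicate 2 and AOB-H replicate 6 lowered the median of the collagens to 0.60 and of the matricellular proteins to 0.78, and raised that of TGF-beta and activin signalling to 0.64.

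Genes of inflammation, the interferon response and the cell cycle were also mostly higher, with 0 called in each list. At an unadjusted p under 0.05, 9 of 22 inflammatory mediators were higher (median 0.54), 10 of 25 interferon-stimulated genes (median 0.57) and 9 of 29 cell cycle genes (median 0.41, with 1 lower). The share over all genes was 10.8% higher and 6.38% lower. *Ptgs2*, the inducible cyclooxygenase, had 243, 480, 89.7, 48.9, 111 and 56.8 normalized counts in PAB-H and 22.3 to 52.2 in AOB-H (2.08 ± 0.54, adjusted p = 0.071). *Mx1*, an antiviral GTPase, had 109 to 531 against 58.5 to 201 (1.23 ± 0.37, adjusted p = 0.0941). For both genes PAB-H replicate 2 was the highest library, the one with the largest shares of fibroblast and macrophage markers. *Ccnd1*, a cyclin of the entry into the cell cycle, had 841 to 1409 against 611 to 842 (0.59 ± 0.21, adjusted p = 0.142).

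Of the 9 genes that fell in the loaded RV, 5 were lower in every loaded library than in every remote one. With sex as a covariate, 3 of these 5 were still called. *Ppp1r1a*, an inhibitor of protein phosphatase 1, had 66.7, 34.4, 40.7, 28.5, 52.8 and 67.9 normalized counts in RV PAB-H and 89.8, 123, 117, 76.6, 105 and 73.1 in RV AOB-H, without overlap (-1.01 ± 0.21, adjusted p = 0.0132). RV Sham-H was at 91.0 ± 13.5. *Rgs6*, a regulator of G protein signalling that shortens muscarinic signals in the heart, had 650 to 1037 against 1317 to 1510 (-0.64 ± 0.15, adjusted p = 0.0386), with 1431 ± 79.9 in sham. *Pcdh11x*, an X-linked protocadherin, had 167 in PAB-H replicate 1, 51.8 to 74.1 in the other PAB-H libraries and 168 to 262 in AOB-H (-1.45 ± 0.33, adjusted p = 0.0341). *Sobp* had 216 to 361 against 384 to 467 (-0.60 ± 0.13, adjusted p = 0.0292) and *LOC500300* 2256 to 4729 against 5006 to 6731 (-0.71 ± 0.16, adjusted p = 0.0341), each without overlap. The sham RV was at 455 ± 36.1 for *Sobp*, and at 4539 ± 911 for *LOC500300*, the latter within the range of the loaded RV. Non-overlap in this direction held for 105 genes (0.878%). The others were *Phactr1*, a regulator of actin and of protein phosphatase 1 (-0.62 ± 0.14), *Ybx1*, a cold shock domain protein that binds RNA (-0.71 ± 0.16), *Socs2*, a suppressor of cytokine signalling (-0.57 ± 0.13), and *Smim11* (-0.98 ± 0.23), with adjusted p between 0.0341 and 0.0466. Without PAB-H replicate 2 the difference was -0.93 for *Ppp1r1a* (adjusted p = 0.0923), -1.35 for *Pcdh11x* (0.303) and -0.53 for *Sobp* (0.319). It was then -0.56 for *Rgs6*, -0.61 for *LOC500300*, -0.54 for *Phactr1*, -0.62 for *Ybx1*, -0.51 for *Socs2* and -0.89 for *Smim11*, each with an adjusted p of 0.369.

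No gene of energy metabolism was called. Of 69 subunits of oxidative phosphorylation, 28 were lower and 0 higher at an unadjusted p under 0.05, beside 6.38% of all genes lower, and their median was -0.29. *Cox5b*, a subunit of cytochrome c oxidase, had 996 to 3748 normalized counts in PAB-H and 2464 to 7042 in AOB-H (-0.92 ± 0.25, adjusted p = 0.0852). These are short transcripts with a median of 653 bases, and short genes as a class were lower, since the 1196 genes of up to 1003 bases had a median of -0.12 and the 1196 longest, from 4768 bases, one of 0.05. With the trend over gene length removed the median of the subunits was -0.18. The ventricular cardiomyocyte markers, with 9.52% of the counts in PAB-H and 11.1% in AOB-H, had a median of -0.38, and of -0.17 with the trend removed. Their part in the values of the subunits was not tested. Of 33 genes of fatty acid oxidation 9 were lower and 0 higher, with a median of -0.21 (-0.25 with the trend removed), led by *Etfb*, an electron transfer flavoprotein (-0.59 ± 0.15, adjusted p = 0.0589). Of 28 genes of glucose uptake and glycolysis 3 were lower, with a median of -0.07, and of 19 genes of mitochondrial biogenesis 0 differed at that level.

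Among signalling and stress genes, *Fos* had 4482 to 6446 normalized counts in PAB-H and 6905 to 11964 in AOB-H (-0.59 ± 0.17, adjusted p = 0.0893) and *Jun* 7002 to 8634 against 9078 to 11845 (-0.45 ± 0.15, adjusted p = 0.118). Both are immediate early transcription factors, and neither group overlapped the other, which held for 105 genes (0.878%) in this direction. *Ddit3*, a factor of the integrated stress response, had 582 to 1298 against 1477 to 2099 (-0.90 ± 0.26, adjusted p = 0.0874), and *Hdac5*, a histone deacetylase that restrains hypertrophic genes, 2335 to 3803 against 3936 to 6337 (-0.56 ± 0.16, adjusted p = 0.0874). Of 23 immediate early genes 5 were lower and 1 higher at an unadjusted p under 0.05 (median -0.18), and of 26 genes of calcineurin and hypertrophic signalling 4 were higher and 4 lower (median -0.06). Of 16 genes of calcium cycling 2 were higher and 1 lower (median -0.13), and of 20 potassium and sodium channel genes 1 and 2 (median -0.10). No gene of these 4 lists was called. Over all genes, 10.8% were higher and 6.38% lower at that level.

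**Figure D4:**
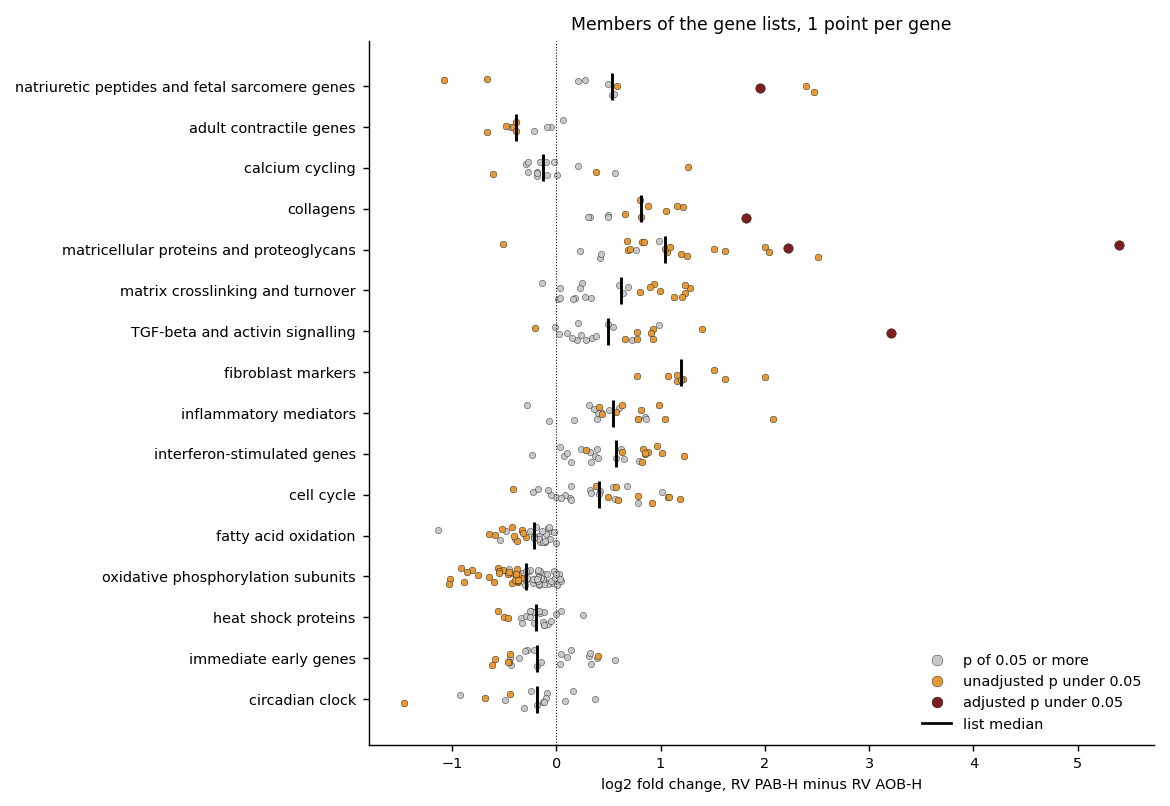
Log2 fold change, RV PAB-H minus RV AOB-H, of each tested member of 16 gene lists (points), coloured by its p, with the list median as a line. The matrix lists and fibroblast markers lie to the right, with medians of 0.50 to 1.20, and fatty acid oxidation and oxidative phosphorylation to the left, at -0.21 and -0.29.

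By a second rule, adapted from the thresholds of the study (here a log2 fold change beyond 1 in either direction, p not above 0.01 before adjustment, and more than 50 normalized counts on average in 1 of the groups), 125 genes (1.05%) differed, 115 (0.962%) higher and 10 (0.0837%) lower in RV PAB-H. The count included 12 of the 20 called genes. With fold changes shrunken by DESeq2, the kind of estimate that the study used, it was 55. It was 51 without PAB-H replicate 2 and AOB-H replicate 6, 23 without PAB-H replicate 2, 195 and 225 without PAB-H replicates 5 and 6, and 302 without AOB-H replicate 6. Of the 125 genes, 19 belonged to the 4 lists of collagens, matricellular proteins, matrix turnover and TGF-beta signalling.

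The sexes were unevenly spread over the bands. With sex as a covariate 11 genes were called, 10 of them among the 20, and *Acta1* and *Dram1* each had an adjusted p of 0.00155. The rest of the 20 lost their call. Of the called genes without overlap, 4 of the 5 higher and 3 of the 5 lower ones kept it. Within males (4 against 2 libraries) 174 genes were called, 14 of the 20 among them, and within females (2 against 4) 2 were, *Acta1* and *Crym*. *Acta1* differed by 1.38 ± 0.45 in males and 2.43 ± 0.41 in females, *Nppa* by 2.56 ± 0.85 and 2.36 ± 0.71, and *Sypl2* by 1.47 ± 0.49 and 1.76 ± 0.44. *Cilp* differed by 2.5 ± 0.64 in males and 0.56 ± 0.60 in females, *Ltbp2* by 3.40 ± 1.02 and 0.58 ± 0.97, and *Col1a1* by 1.57 ± 0.54 and -0.03 ± 0.50. Both libraries rich in fibroblast counts were male. The difference between the sexes was called for 0 of 11628 genes (1345, or 11.6%, at an unadjusted p under 0.05, edgeR), so a sex difference of these genes was not shown.

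The left ventricles (LV) of the same rats gave the opposite arrangement, with the LV loaded in AOB-H and remote in PAB-H. There, 0 of 11954 genes were called between the bands (485, or 4.06%, at an unadjusted p under 0.05 with edgeR, and 0 called and 568 with DESeq2). None of the 20 genes had an unadjusted p under 0.05 in the LV and 9 had the sign of the RV. *Acta1* had 8529 to 22076 normalized counts in LV PAB-H and 6807 to 23260 in LV AOB-H (0.24 ± 0.40), and *Nppa* 1792 to 10016 and 1943 to 13506 (-0.21 ± 0.57). Whether the difference between the bands itself differed between the ventricles was tested as an interaction. It did for 1 gene (0.00837%), *Dram1*, by 2.07 (adjusted p = 0.0168), and for 0 genes without any 1 of PAB-H animals 1 and 2 and AOB-H animals 2, 3 and 6. It did for 3 and 9 genes without PAB-H animals 5 and 6 and for 2 without AOB-H animal 1. With the animal as a block, since each rat gave both ventricles, it did for 229 of 11365 genes (2.01%), 189 of them (1.66%) more positive and 40 (0.352%) more negative in the RV. This test shares its RV libraries with the comparison that chose the 20 genes. Among the genes with a called difference were *Setd7* (adjusted p = 0.0248), *Cilp* (0.0337), *Ybx1* (0.0414), *Dram1* (0.0427), *Rgs6* (0.0427) and *Figf* (0.0473). *Nppa* was at 2.66 (adjusted p = 0.0279) and *Acta1* at 1.62 (adjusted p = 0.0588).

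At the failing stage, the bands were compared in other animals. There the bands also differed in labelled age and treatment time, with 28 and 22 weeks in PAB-F against 31 and 26 weeks in AOB-F. Band, age and time under the band cannot be told apart at this stage. RV PAB-F (6 libraries) and RV AOB-F (7) differed in 497 of 11954 genes (4.16%), 295 (2.47%) higher and 202 (1.69%) lower in PAB-F. Without 1 library this count was lowest at 80 (without PAB-F replicate 1), at 218 without PAB-F replicate 2 or AOB-F replicate 7, and at 298 and 324 without AOB-F replicates 5 and 6. All 20 genes had the same sign there (73.1% of all genes did), 16 of them were called in the same direction, and this is 80% of the genes called at the compensated stage and 3.22% of those called at the failing stage. *Thbs4* differed by 4.38 ± 0.83 (adjusted p = 0.000525), *Cilp* by 2.27 ± 0.47 (0.00166), *Acta1* by 1.64 ± 0.39 (0.00721), *Sypl2* by 1.74 ± 0.32 (0.000264), *Pcdh11x* by -1.96 ± 0.34 (0.000112) and *Ppp1r1a* by -1.06 ± 0.20 (0.000581). The 4 that were not called were *Figf* (0.60 ± 0.32, adjusted p = 0.286), *Setd7* (0.42 ± 0.14, 0.0584), *LOC500300* (-0.36 ± 0.16, 0.176) and *Smim11* (-0.33 ± 0.22, 0.401). Genes that missed the threshold at the compensated stage passed at the failing stage, with *Nppa* at 3.35 ± 0.59 (adjusted p = 0.000168), *Nppb* at 1.57 ± 0.24 (3.49e-05), *Penk* at 1.89 ± 0.34 (0.000264), *Hs3st2* at 4.09 ± 0.70 (0.000112) and *Tceal7* at 1.44 ± 0.44 (0.0449). *Col1a1*, *Myh7*, *Myh6* and *Ankrd1* were not called at either stage. By the second rule, 133 genes (1.11%) differed at the failing stage, and 38 met them at both stages, 30.4% of the compensated and 28.6% of the failing genes. The F animals differ from the H animals in age and time under the band as well as in stage, and the change between the stages was not tested.

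**Figure D5:**
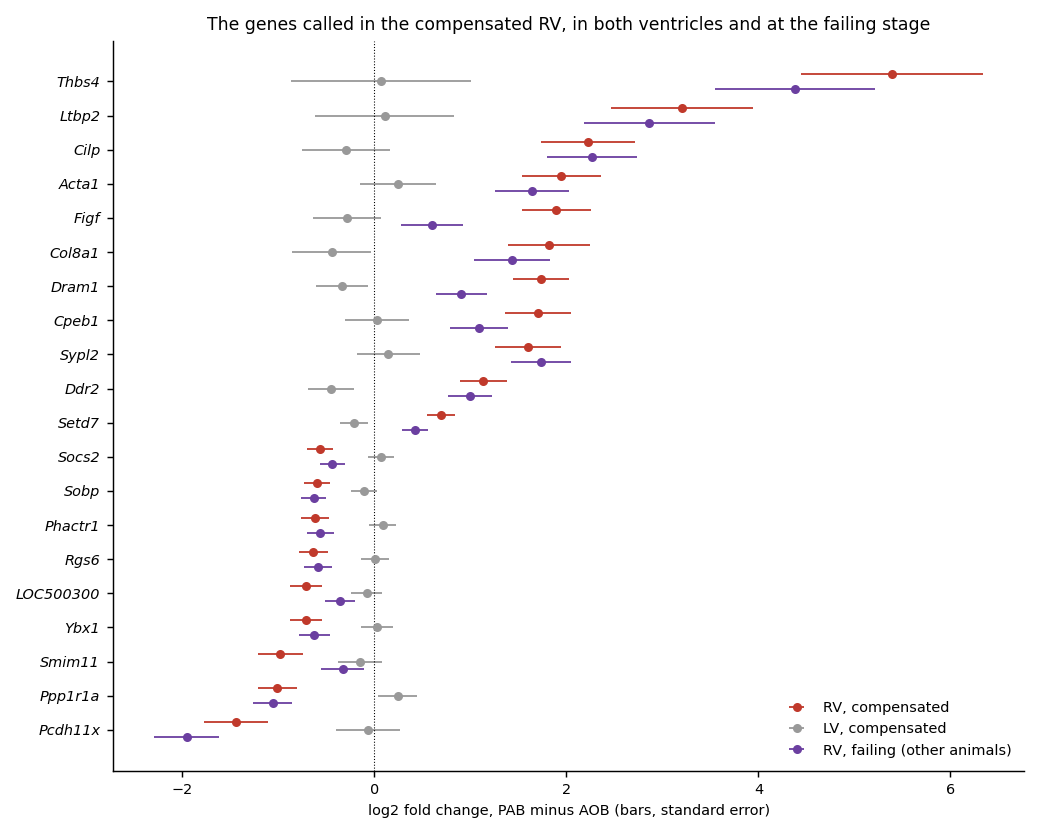
Log2 fold change, PAB minus AOB, with standard error, of the 20 genes called in the compensated RV (red), in the LV of the same rats (grey) and in the failing RV of other rats (violet). All 20 violet points lie on the side of the red ones, and the grey points lie between -0.45 and 0.24.

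The sham animals place the remote RV. RV AOB-H against RV Sham-H gave 0 called genes of 11954 (171, or 1.43%, at an unadjusted p under 0.05, edgeR), and RV PAB-H against RV Sham-H gave 538 (4.5%), 467 (3.91%) higher and 71 (0.594%) lower. For 10 of the 20 genes the sham mean lay between the means of both banded groups. Against sham *Acta1* was at 2.01 ± 0.39 in PAB-H (adjusted p = 0.00184) and 0.06 in AOB-H, *Sypl2* at 1.82 ± 0.33 (0.000726) and 0.22, *Rgs6* at -0.68 ± 0.14 (0.00533) and -0.04, and *Pcdh11x* at -1.60 ± 0.33 (0.00309) and -0.15. *Penk* was at 2.23 ± 0.35 (0.000164) in PAB-H and 1.29 in AOB-H, and *Ankrd23* at 2.17 ± 0.41 (0.00138) and 0.76, each with an adjusted p of 1 in AOB-H. Some AOB-H libraries lay above the sham range for these genes. *Penk* had 239 to 1354 normalized counts in AOB-H and 186 to 294 in Sham-H, and *Ankrd23* 218 to 548 and 161 to 252. *Nppb* had 1866 to 2936 and 828 to 2143. The lack of calls does not show that the remote RV equals the sham RV.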

How the data were processed

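RNA of isolated cardiomyocytes from RV and LV of 41 rats gave 82 libraries in 12 groups. Per the study's methods, the authors depleted ribosomal RNA, trimmed paired reads with Trim Galore, aligned them with STAR to the rat genome Rnor6.0 and counted them with featureCounts, assigning no read to several genes. The deposited raw counts were used for every test. The FPKM values deposited by the authors gave gene lengths and levels between genes, and their DESeq2-normalized counts were not used.

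All 82 libraries entered 1 edgeR (4.0.16, R 4.3.3) quasi-likelihood fit (1 coefficient per group), with TMM factors and filterByExpr (11954 genes), and groups were compared by contrasts with Benjamini-Hochberg adjustment. The normalized counts were scaled to the mean effective library size. The common biological coefficient of variation was 0.244, and total counts limit the precision of genes with few counts. Marker shares were compared by exact two-sided permutation (scipy 1.17.1), whose smallest p for 6 against 6 libraries is 0.00216. DESeq2 (1.42.0) was an alternative. No 2 of the 12 libraries agreed within sampling noise. The functions were tested on simulated data. The comparison, gene lists and alternatives were chosen with earlier results of these data known. Named genes were those called with and without sex as a covariate, without overlap and with a mean normalized count of at least 50 in the higher group (at most 10 per direction), up to 3 called members of each list and a fixed set of names. The other called genes, members of lists with low p and *Crym* were named after their values were seen. The 2 alternatives that removed a gene length trend or PAB-H replicates 1 and 2, and the one that joined sex with both doubted libraries left out, were added after seeing the data. RV and LV libraries of 1 animal were paired by the labels, with a median correlation of their deviations from the group means of 0.24 in PAB-H and 0.26 in AOB-H, so the animal block is given beside the interaction. Promoters were those of RefSeq on GRCr8, and no coordinates of the build of the reads were used.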

Additional observations from a re-analysis of the deposited data

Results flagged for a closer look

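The 64 sets of 6 library values looked at were those of 20 named genes and 12 marker lists in RV PAB-H and RV AOB-H. Dixon's criterion marks a library as far from the others in about 1 of 20 independent, normally distributed sets. The 64 sets share their libraries, so their count cannot be set against that rate. In 16 of the 64 sets a library was far from the others. In PAB-H replicate 2 these were *Thbs4* with 1218 normalized counts, *Col8a1* with 766, *Cilp* with 677 and *Ltbp2* with 1364, and the mural cell markers with 0.214% of the counts. In PAB-H replicate 1 they were *Tceal7*, low with 21.6 normalized counts, and the atrial cardiomyocyte markers with 0.00942% of the counts. In PAB-H replicate 3 the red blood cell genes took 0.00221% of the counts. In AOB-H replicate 6 they were *Col8a1* with 132 and *Col1a1* with 1890 normalized counts, and endothelial markers with 0.258%, epicardial markers with 0.00652% and red blood cell genes with 0.00334% of the counts. In AOB-H, *Thbs4* was high in replicate 2 with 15.8 normalized counts, *Figf* in replicate 1 with 31.7, and *Nppb* was low in replicate 4 with 1866.

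The difference between the bands differed between the ventricles for *Dram1*, by 2.07 on the log2 scale (edgeR interaction, adjusted p = 0.0168), with 28.4 to 89.2 normalized counts in RV PAB-H, 8.53 to 20.5 in RV AOB-H, 34.6 to 58.6 in LV PAB-H and 30.6 to 99.0 in LV AOB-H.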

How the results depend on the processing

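The count of 20 genes called was 20 with size factors of DESeq2, 17 without a filter and 27 with the gene length trend removed. It was 78 with DESeq2, 38 in a fit to the 12 libraries, 11 with sex as a covariate, 174 in males, 2 in females, 0 without both doubted libraries, 6 when sex was added to that fit, 3 without PAB-H replicates 1 and 2, and 1 to 669 without 1 library. With replicate number as a block it was 1 (*Nppa*). The numbers only name the animals of the bands (correlations of -0.41 to 0.30, with 1 of 6 libraries closest to its own number), so this block pairs nothing. The 125 genes meeting the rule adapted from the study became 78 in the 12 libraries, 75 with sex, 46 with the replicate block, 51 without both doubted libraries, 39 with sex added to that, 464 in males, 18 in females, 19 without PAB-H replicates 1 and 2, 55 with shrunken fold changes, 188 with a minimum mean of 10, and 23 to 302 without 1 library. The 1 gene of the interaction became 12 with DESeq2, 6 with sex, 229 with the animal as replicate block, 0 without both doubted animals and 0 to 9 without 1 animal. The 497 genes of the failing stage became 80 (without RV PAB-F replicate 1) to 695 without 1 library, and the counts of 0 in the LV and between the sexes stayed 0 in every alternative run. The causes were not tested.

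Over the named genes, 353 of 478 alternative values kept their side of the threshold, 111 lost and 12 gained a call, and 2 turned, *Myh7* to -0.0142 in males and *Col1a1* to -0.0309 in females, neither being called. List medians moved by less than the spread between libraries in all 156 alternatives. For some lists this spread was larger than the median itself, so the limit is wide. The difference of the red blood cell genes (-8.4e-05% of the counts) turned to 0.000368% without both doubted libraries and ranged from -0.000322% to 0.000362% without 1 library, and that of the neutrophil markers, with 26 counts in all, from -2.3e-06% to 8.2e-06%. Genes with few counts, such as *Hs3st2*, are limited by depth.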
